A study of Mus musculus with 9 samples.

Results

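Ribosome biogenesis factors are the proteins that make ribosomes without being part of them. The set described here holds 44 mouse genes of RNA polymerase I transcription, of the snoRNP particles that guide ribosomal RNA modification, and of nucleolar processing of the small and large ribosomal subunit. The set was put together by function, with earlier results of these data known. Of the 44 genes, 41 were measured, out of 22180 genes tested, each read from its brightest probe set that carried 1 gene symbol. Fbl, the methyltransferase of the box C/D snoRNP, and Tsr1 and Mrto4, factors of the small and the large subunit, lay on probe sets with several symbols and are not analysed here.

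Ribosomes are assembled mainly in the nucleolus. RNA polymerase I makes a long precursor there that is cut, folded and chemically modified, guided by small nucleolar RNAs (snoRNAs) held in box C/D particles, which direct methylation, and box H/ACA particles, which direct conversion of uridine to pseudouridine. Many snoRNAs are cut out of introns of host genes, and several hosts themselves encode ribosome biogenesis factors. The transcription factor Myc is known to raise transcription of many genes of this set and of RNA polymerase I itself, and output of the pathway rises in cells that grow or divide. Microglia, the resident macrophages of the brain, divide slowly in the healthy adult brain.

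Microglia were sorted by FACS from the brains of female C57Bl/6 mice aged 24 to 28 weeks, and 3 arrays were made for each of 3 genotypes. FAD DKO mice were FAD Hdac1/2fl/fl Cx3cr1CreERT2: they carried familial Alzheimer's disease transgenes, floxed alleles of Hdac1 and Hdac2, which encode histone deacetylases, and a tamoxifen-inducible Cre recombinase in the fractalkine receptor gene Cx3cr1. FAD mice were FAD Hdac1/2fl/fl, with the same transgenes and floxed alleles and no Cre, and wild type mice carried none of these. Every animal, wild type included, had been given 8 mg of tamoxifen at 6 weeks of age. FAD DKO and FAD therefore differ by the Cre driver as well as by the deletion, and FAD and wild type differ by the floxed alleles as well as by the transgenes. Cx3cr1 is also active in other macrophages and in monocytes, so the driver is not limited to microglia. The labels do not state that arrays come from separate animals, so p-values measure the spread among these samples, which may be technical.

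All levels below are log2 signals. The 9 array medians lay between 5.35 and 5.40. All 41 measured factors lay above the median of all probe sets (5.35) on every array, and their lowest single value was 5.60. Hdac1 stood at 7.63, 7.41 and 7.64 in FAD DKO, 8.03, 8.14 and 8.19 in FAD, and 8.07, 8.65 and 8.60 in wild type. Hdac2 stood at 7.89, 7.61 and 7.90 in FAD DKO, 8.56, 8.52 and 8.36 in FAD, and 8.28, 8.39 and 8.22 in wild type. For both, the FAD DKO arrays were the lowest 3 of the 9, although the probes may not cover the floxed exons. FAD DKO minus FAD was -0.56 for Hdac1 (limma adjusted p = 0.376) and -0.68 for Hdac2 (limma adjusted p = 0.159). FAD minus wild type was -0.32 for Hdac1 and 0.19 for Hdac2. Cx3cr1, the gene that carries the Cre driver, gave -0.25 for FAD DKO minus FAD (limma adjusted p = 0.383). Its FAD DKO minus wild type difference was -0.33 (limma adjusted p = 0.133). Of 14 microglia markers 13 were measured and 0 lay below the median signal. Their mean level was 10.93, 10.92 and 10.86 in FAD DKO, 10.87, 10.93 and 10.95 in FAD, and 10.99, 11.02 and 11.03 in wild type. The wild type arrays were the highest, with 12 of the 13 below 0 in FAD minus wild type (median -0.08) and 1 at an unadjusted p under 0.05. In FAD DKO minus FAD 5 lay below 0 (median 0.04) and 2 had such a p. In FAD DKO minus wild type 10 lay below 0 (median -0.05) and 4 had such a p. Over all genes 4.41% were higher and 4.02% lower at that threshold in FAD minus wild type. These shares were 3.69% and 4.41% in FAD DKO minus FAD, and 3.95% and 4.19% in FAD DKO minus wild type. The part of the microglia marker shifts in the factors' differences was not tested. In bulk samples, fewer cells of a type and less RNA per cell cannot be told apart.

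Ribosome biogenesis factors tended to stand higher in FAD microglia than in FAD DKO or in wild type microglia, by small amounts that did not pass the test over all genes. The mean of the 41 factors on each array, after centring each gene on its mean over the 9 arrays, was -0.08, -0.10 and -0.05 in FAD DKO, 0.15, 0.08 and 0.13 in FAD, and -0.04, -0.02 and -0.07 in wild type. The 3 FAD arrays were the highest, and the FAD DKO and wild type arrays overlapped.

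**Figure D1:**
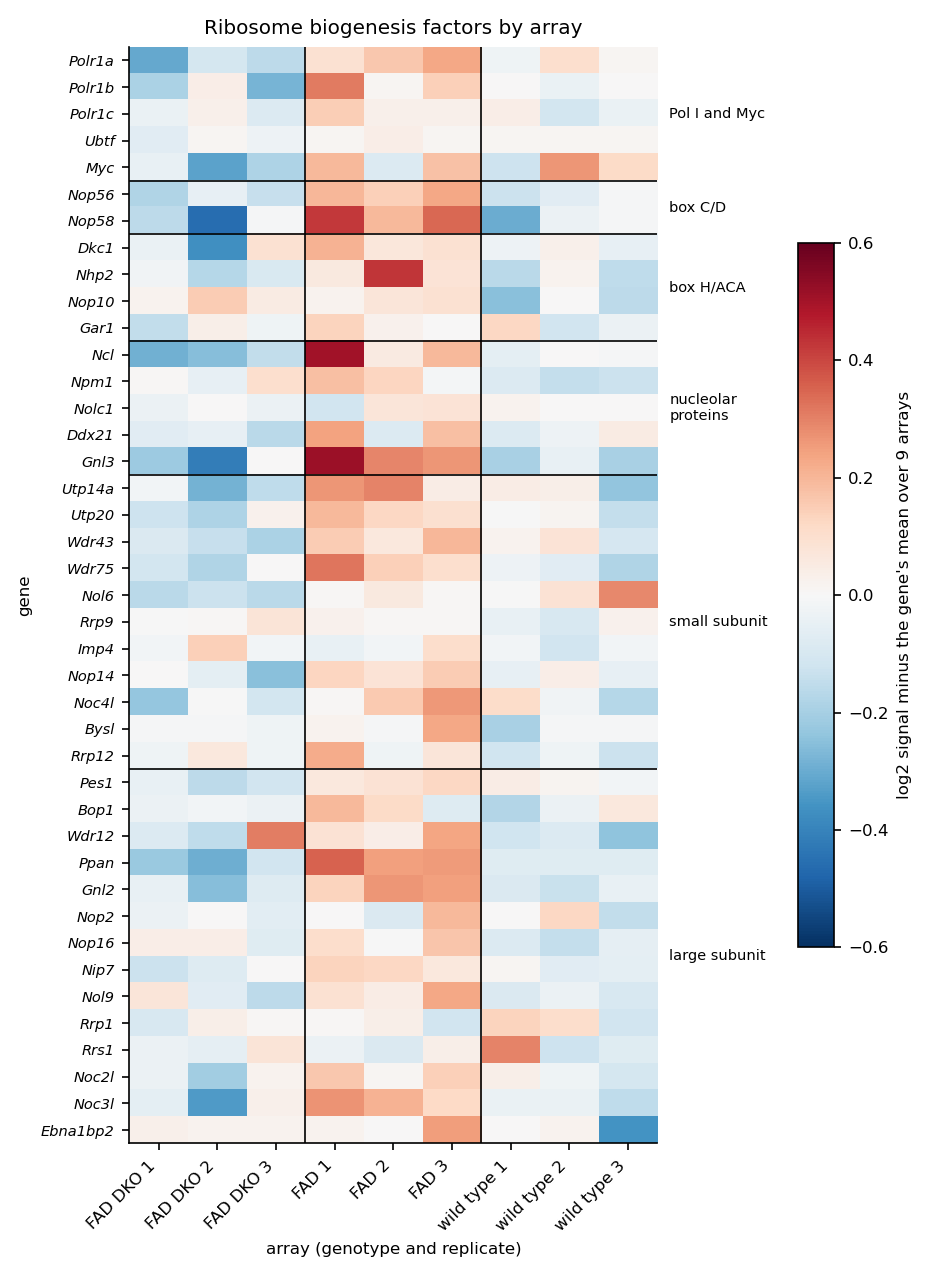
Heat map of the 41 measured ribosome biogenesis factors (rows, grouped by role) on the 9 arrays (columns, FAD DKO, then FAD, then wild type). Colour is the log2 signal minus the gene's mean over the 9 arrays, and most rows are highest in the FAD columns, where the array means were 0.15, 0.08 and 0.13.

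FAD microglia were compared with wild type to ask how the factors differ in the disease model with Hdac1 and Hdac2 intact. Of the 41 factors, 38 lay above 0 and 3 below, with a median difference of 0.16 (log2), a lowest of -0.10 and a highest of 0.50. The median over all 22180 genes was -0.01. At an adjusted p under 0.05 (Benjamini-Hochberg over all genes, limma) 0 of the 41 factors passed, where 0.0406% of all genes did, and the lowest adjusted p among the factors was 0.191. At an unadjusted p under 0.05, 17 factors (41.5%) had higher levels in FAD and 0 had lower ones. Over all genes those shares were 4.41% and 4.02%, and among the 11532 genes at or above the median signal, to which all 41 factors belong, 7.54% and 4.88%. The groups did not overlap for 20 factors, all higher in FAD, against 5.98% of all genes in that direction and 5.03% in the other. The count of 17 was 8 when FAD replicate 1 was left out, 8 when wild type replicate 3 was, and 10 when wild type replicate 1 was, while the median stayed between 0.13 and 0.19 in all 9 fits that left out 1 array.

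FAD DKO microglia were compared with FAD to ask what changes with induced deletion of Hdac1 and Hdac2 in the disease model. Here 36 of the 41 factors lay below 0 and 5 above, with a median difference of -0.18, a lowest of -0.57 and a highest of 0.02, where the median over all genes was 0.01. Again 0 factors passed the adjusted threshold in limma, where 0.0225% of all genes did, and their lowest adjusted p was 0.149. At an unadjusted p under 0.05, 18 factors (43.9%) were lower in FAD DKO and 0 were higher. The shares over all genes were 4.41% lower and 3.69% higher, and 8.03% lower and 3.82% higher among genes at or above the median signal. For 18 factors every FAD DKO array lay below every FAD array, and for 0 the reverse held. Over all genes 6.02% lay lower and 5.00% higher without overlap. Leaving out 1 array kept the count of lower factors between 15 and 20. Both comparisons use the same 3 FAD arrays, with opposite sign, so they are not independent of each other.

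FAD DKO microglia were also compared with wild type. The differences in this comparison use no FAD array. Its p-values do, because the spread was estimated over the arrays of all groups together. The median difference of the factors was -0.04, from -0.28 to 0.21, with 13 factors above 0 and 28 below, where the median over all genes was 0.00. In limma 0 factors passed the adjusted threshold, against 0.14% of all genes, and their lowest adjusted p was 0.359. An unadjusted p under 0.05 was reached by 1 factor that was higher and 2 that were lower in FAD DKO, shares of 2.44% and 4.88%. Over all genes the shares were 3.95% and 4.19%, and 5.61% and 6.82% among genes at or above the median signal, so the counts were near the background. The groups did not overlap for 2 higher and 5 lower factors, where 5.35% and 5.76% of all genes lay so. Without FAD DKO replicate 2 the median was -0.01, with 19 factors above 0.

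**Figure D2:**
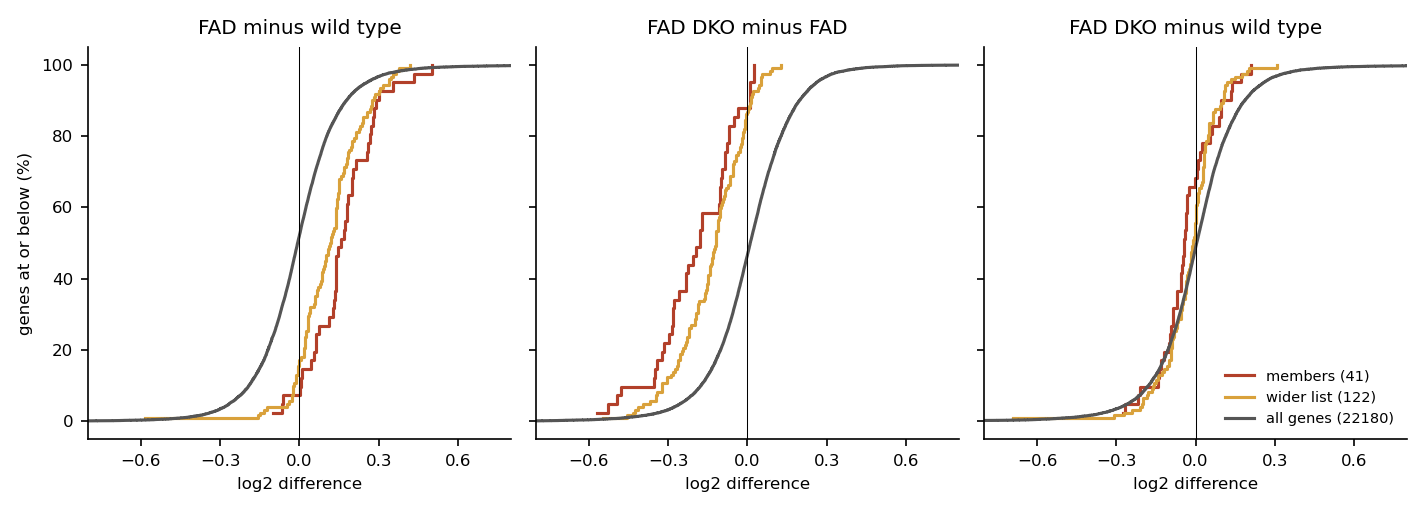
Cumulative share of genes in percent (vertical axis) against the log2 difference (horizontal axis), with 1 panel per comparison, for the 41 factors (red, labelled members), the wider list of 122 ribosome biogenesis genes described further on (yellow) and all 22180 genes (grey). The red line lies right of the grey one in FAD minus wild type (median 0.16), left of it in FAD DKO minus FAD (median -0.18) and near it in FAD DKO minus wild type (median -0.04).

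Among the genes of RNA polymerase I transcription, Polr1a, the largest catalytic subunit, stood at 7.44, 7.64 and 7.59 in FAD DKO, 7.84, 7.91 and 7.98 in FAD, and 7.72, 7.85 and 7.76 in wild type. The FAD DKO arrays were the lowest 3, while FAD and wild type overlapped. The difference was -0.35 for FAD DKO minus FAD (SE 0.0776, unadjusted p = 0.00143, limma adjusted p = 0.275) and -0.22 for FAD DKO minus wild type (unadjusted p = 0.0198, limma adjusted p = 0.487). For Polr1b, which completes the catalytic core, the difference was -0.30 for FAD DKO minus FAD (limma adjusted p = 0.505). Polr1c, a subunit shared with RNA polymerase III, gave -0.10 and 0.11, and Ubtf, the HMG-box factor that opens ribosomal DNA for transcription, gave -0.05 and 0.01, each first for FAD DKO minus FAD and then for FAD minus wild type. Of these 5 genes with Myc, 2 were lower in FAD DKO than in FAD at an unadjusted p under 0.05. At that threshold 0 had a higher level in FAD than in wild type. Over all genes the shares were 4.41% and 4.41%, and 8.03% and 7.54% at or above the median signal.

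Myc, the transcription factor that drives ribosome production, had no difference past an unadjusted p of 0.05. Its level was 9.09, 8.81 and 8.95 in FAD DKO, 9.33, 9.05 and 9.31 in FAD, and 9.01, 9.40 and 9.25 in wild type, and all groups overlapped. FAD minus wild type was 0.01 (95% interval -0.27 to 0.29, limma adjusted p = 0.988). This value had no settled sign: it was -0.09 without wild type replicate 1, -0.04 without FAD replicate 1, -0.03 without FAD replicate 3 and -0.06 with array weights. FAD DKO minus FAD was -0.28 (unadjusted p = 0.0507, limma adjusted p = 0.615). FAD DKO minus wild type was -0.27 (95% interval -0.55 to 0.01, limma adjusted p = 0.632). The intervals are wide enough to hold differences of the size most factors showed.

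The core proteins of the box C/D snoRNP, Nop56 and Nop58, bind the guide RNA together with the methyltransferase. Nop56 stood at 8.26, 8.39 and 8.30 in FAD DKO, 8.64, 8.58 and 8.67 in FAD, and 8.31, 8.37 and 8.43 in wild type. All 3 FAD arrays lay above all others, and the FAD DKO and wild type arrays overlapped. FAD minus wild type was 0.26 (SE 0.0677, limma adjusted p = 0.374) and FAD DKO minus FAD was -0.32 (limma adjusted p = 0.259). Nop58 stood at 7.73, 7.43 and 7.88 in FAD DKO, 8.31, 8.08 and 8.23 in FAD, and 7.59, 7.85 and 7.88 in wild type, the same order with more spread. Its differences were 0.44 for FAD minus wild type (SE 0.13, limma adjusted p = 0.458) and -0.53 for FAD DKO minus FAD (limma adjusted p = 0.321). FAD DKO minus wild type was -0.06 for Nop56 and -0.09 for Nop58.

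The box H/ACA snoRNP has the pseudouridine synthase Dkc1 (dyskerin) and the small proteins Nhp2, Nop10 and Gar1. Nop10 stood at 7.60, 7.73 and 7.63 in FAD DKO, 7.60, 7.65 and 7.67 in FAD, and 7.33, 7.58 and 7.42 in wild type. FAD DKO and FAD overlapped, and both lay above all wild type arrays. FAD DKO minus wild type was 0.21 (SE 0.0789, unadjusted p = 0.0262, limma adjusted p = 0.52), and Nop10 was the single factor higher in that comparison at an unadjusted p under 0.05. It was 0.01 for FAD DKO minus FAD and 0.20 for FAD minus wild type (limma adjusted p = 0.565). Nhp2 was like the box C/D proteins, with 0.29 for FAD minus wild type and -0.28 for FAD DKO minus FAD. Dkc1 gave 0.14 and -0.23 in these comparisons and Gar1 gave 0.06 and -0.10, and neither reached an unadjusted p under 0.05.

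The nucleolar scaffold and chaperone proteins came next. Gnl3 (nucleostemin), a nucleolar GTP-binding protein of growing and dividing cells, stood at 7.93, 7.73 and 8.15 in FAD DKO, 8.66, 8.44 and 8.41 in FAD, and 7.95, 8.10 and 7.95 in wild type. All FAD arrays lay above all other arrays. FAD minus wild type was 0.50, a ratio of 1.42 (SE 0.116, limma adjusted p = 0.291), and FAD DKO minus FAD was -0.57, a ratio of 0.674 (limma adjusted p = 0.241). These were the widest differences of the 41 factors in each comparison.

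Ncl (nucleolin), which binds nascent ribosomal RNA, stood at 8.58, 8.61 and 8.72 in FAD DKO, 9.37, 8.92 and 9.06 in FAD, and 8.81, 8.87 and 8.86 in wild type. Its groups were fully separate, with FAD highest and FAD DKO lowest. FAD DKO minus FAD was -0.48 (limma adjusted p = 0.287), FAD minus wild type 0.27 (SE 0.109, limma adjusted p = 0.582) and FAD DKO minus wild type -0.21 (limma adjusted p = 0.671). Npm1 (nucleophosmin), a histone and ribosomal protein chaperone, had another pattern, with 10.40, 10.34 and 10.49 in FAD DKO, 10.57, 10.52 and 10.38 in FAD, and 10.31, 10.25 and 10.26 in wild type. FAD DKO and FAD overlapped and both lay above wild type, with FAD minus wild type at 0.21 (SE 0.0745, limma adjusted p = 0.513) and FAD DKO minus wild type at 0.14 (limma adjusted p = 0.689). For the RNA helicase Ddx21 the differences were 0.14 for FAD minus wild type and -0.21 for FAD DKO minus FAD, and for Nolc1, a chaperone of snoRNPs, 0.00 and -0.04.

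**Figure D3:**
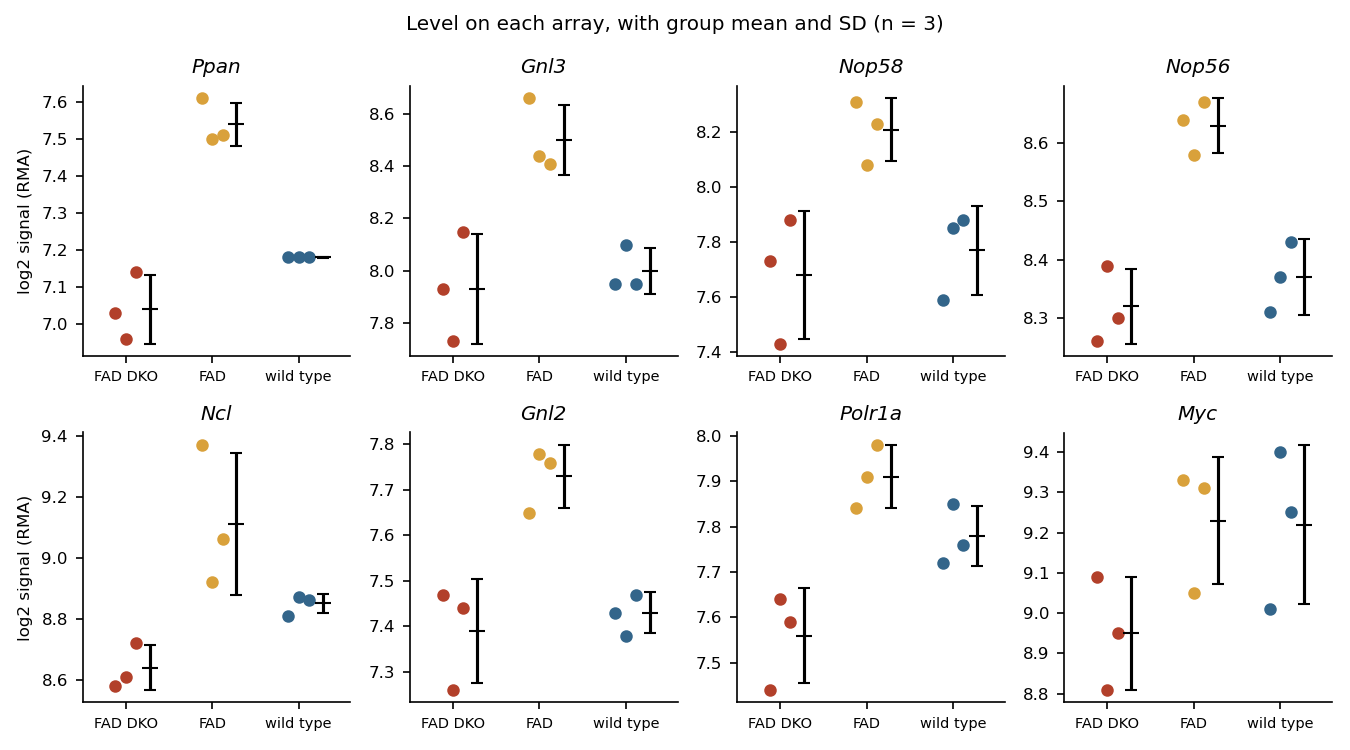
Log2 signal (vertical axis, cut to each gene's range) of Ppan, Gnl3, Nop58, Nop56, Ncl, Gnl2, Polr1a and Myc, with FAD DKO left, FAD in the middle and wild type right; points are arrays and black marks are group means with SD (n = 3). The FAD points lie above all others in every panel but those of Polr1a and Myc, as for Gnl3 at 8.66, 8.44 and 8.41.

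In the pathway of the small subunit, 6 of 11 measured factors were lower in FAD DKO than in FAD at an unadjusted p under 0.05, with a median over the 11 of -0.22, where 4.41% of all genes were lower (8.03% at or above the median signal). In FAD minus wild type 4 of 11 had higher levels, with a median of 0.16, where 4.41% of all genes were higher (7.54% at or above the median signal). Wdr43 and Wdr75 belong to the complex that first binds the nascent precursor and links it to transcription. Wdr43 stood at 8.10, 8.05 and 8.00 in FAD DKO, 8.34, 8.25 and 8.39 in FAD, and 8.21, 8.27 and 8.09 in wild type, so that FAD DKO lay below FAD without overlap (-0.28, SE 0.0735, limma adjusted p = 0.379). Wdr75 stood at 7.43, 7.36 and 7.54 in FAD DKO, 7.86, 7.68 and 7.64 in FAD, and 7.51, 7.47 and 7.36 in wild type. Its FAD arrays lay above all others, with differences of 0.28 for FAD minus wild type (SE 0.0844, limma adjusted p = 0.458) and -0.29 for FAD DKO minus FAD (limma adjusted p = 0.413).

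Nol6, a further part of the early small-subunit particle, stood at 6.65, 6.68 and 6.65 in FAD DKO, 6.82, 6.87 and 6.82 in FAD, and 6.81, 6.90 and 7.10 in wild type. FAD DKO lay below both other groups, which overlapped each other. Its FAD DKO minus wild type difference of -0.28 (SE 0.0802, unadjusted p = 0.00747, limma adjusted p = 0.359) was the lowest of the 41 factors, and it was -0.19 without wild type replicate 3. The processing factors Utp14a, an RNA helicase cofactor, Utp20, Nop14 and Noc4l gave -0.36, -0.23, -0.22 and -0.26 for FAD DKO minus FAD, all without overlap. Imp4 and Rrp9, proteins of the particle that guides the early cuts, gave 0.02 and 0.01, and the late maturation factors Bysl and Rrp12 gave -0.10 and -0.09.

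For the large subunit, 6 of 14 measured factors had higher levels in FAD over wild type at an unadjusted p under 0.05 (median over the 14 of 0.16), where 4.41% of all genes did and 7.54% of those at or above the median signal. In FAD DKO minus FAD 5 of 14 were lower (median -0.14), where 4.41% and 8.03% of these genes were. Ppan, a nucleolar factor of large-subunit assembly, had the smallest p of the 41 factors in both comparisons. It stood at 7.03, 6.96 and 7.14 in FAD DKO, 7.61, 7.50 and 7.51 in FAD, and 7.18 in each of the 3 wild type arrays. The 3 groups were separate, and the wild type values had an SD of 0.0007. FAD DKO minus FAD was -0.50, a ratio of 0.709 (SE 0.0692, unadjusted p = 5.37e-05, limma adjusted p = 0.149), and FAD minus wild type was 0.35 (limma adjusted p = 0.191). In limma the FAD DKO minus FAD difference of Ppan passed once probe sets below the median signal were left out (adjusted p = 0.0445), and again under a variance model with trend and robust moderation (adjusted p = 0.0306). A dimmer probe set for Ppan gave 0.03 and 0.07 in these comparisons, so the probe sets of this gene disagreed.

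Gnl2, a GTPase needed for release of the large-subunit particle from the nucleolus, stood at 7.47, 7.26 and 7.44 in FAD DKO, 7.65, 7.78 and 7.76 in FAD, and 7.43, 7.38 and 7.47 in wild type. All FAD arrays lay above all others, with FAD minus wild type at 0.30 (SE 0.0774, limma adjusted p = 0.362) and FAD DKO minus FAD at -0.34 (limma adjusted p = 0.282). Noc3l, which in yeast takes part in transport of large-subunit precursors, stood at 6.72, 6.44 and 6.81 in FAD DKO, 7.05, 6.99 and 6.90 in FAD, and 6.74, 6.74 and 6.63 in wild type. FAD was again highest without overlap, at 0.28 over wild type (SE 0.0987, limma adjusted p = 0.516), and FAD DKO minus FAD was -0.32 (limma adjusted p = 0.429).

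Pes1 forms a complex with Bop1 and Wdr12 that is needed to process the precursor of the large-subunit RNA. Pes1 stood at 7.52, 7.41 and 7.45 in FAD DKO, 7.63, 7.65 and 7.69 in FAD, and 7.61, 7.58 and 7.55 in wild type. These groups did not overlap, with small differences of -0.20 for FAD DKO minus FAD (limma adjusted p = 0.441) and 0.08 for FAD minus wild type. Its partner Wdr12 gave 0.27 for FAD minus wild type and -0.10 for FAD DKO minus FAD, and Bop1 gave 0.13 and -0.11. Rrp1, an early large-subunit factor, and Rrs1, which in yeast brings in the small ribosomal RNA of the large subunit, gave -0.07 and -0.06 for FAD minus wild type and, with Nol6, were the 3 factors below 0 there.

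**Figure D4:**
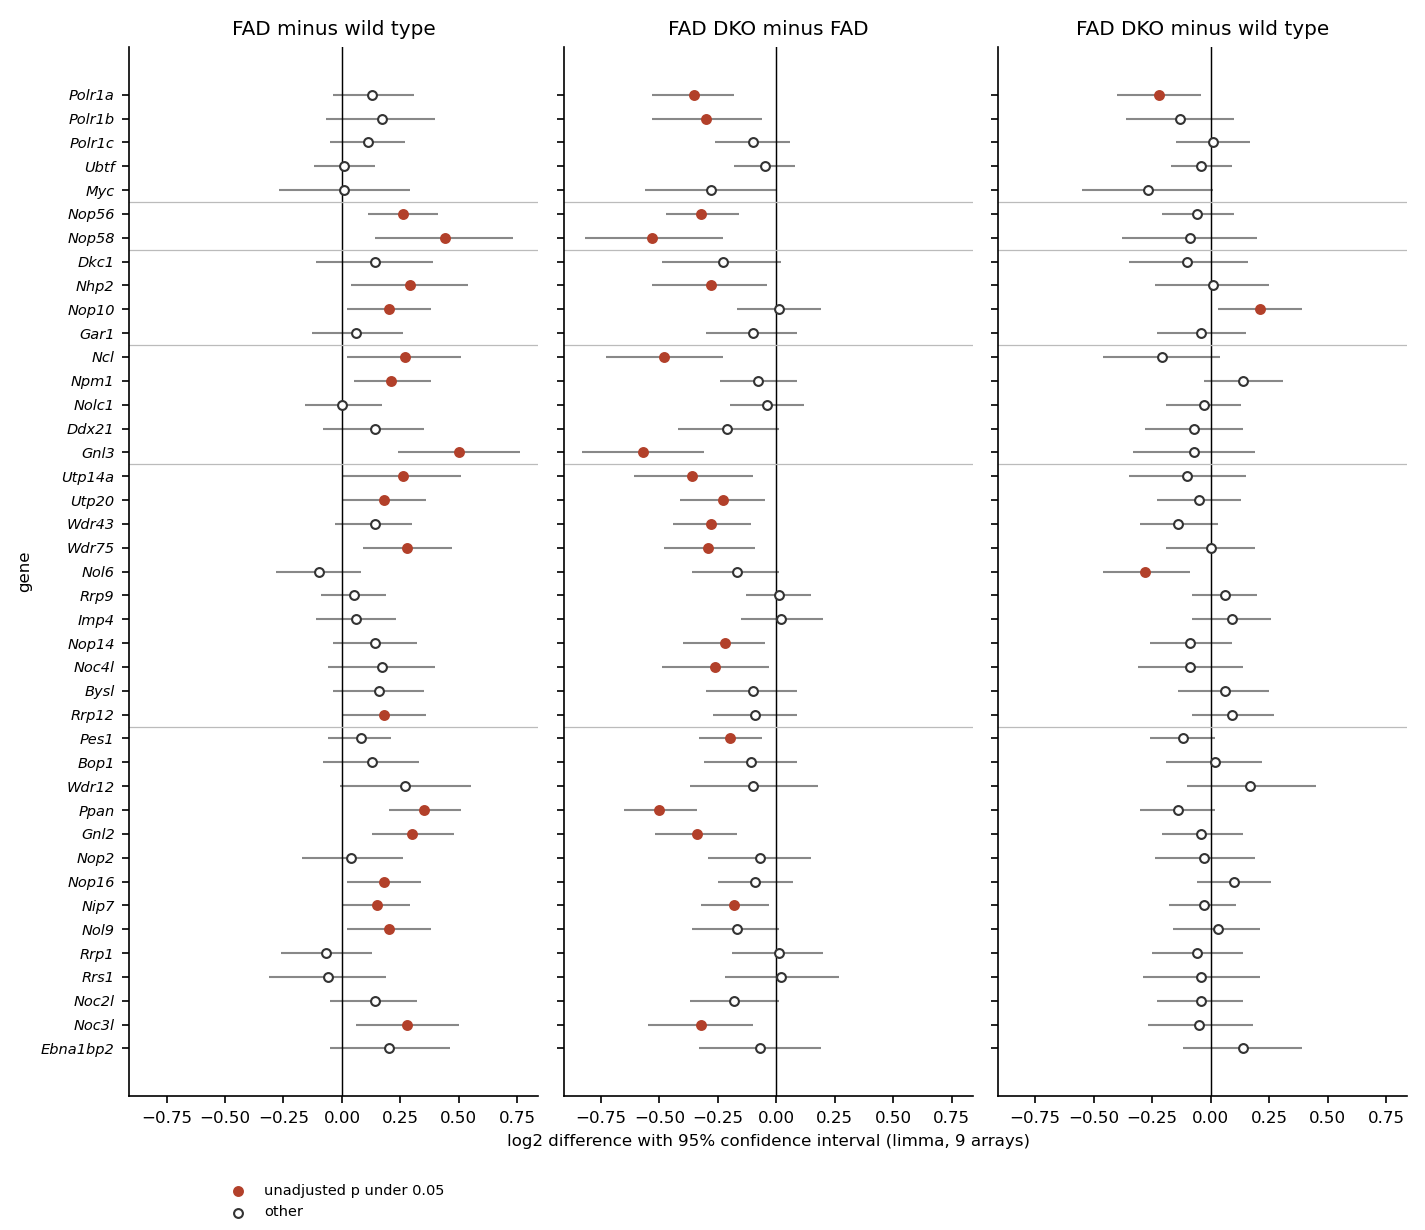
Log2 difference (horizontal axis) of each of the 41 factors (rows, with lines between roles) with its 95% interval from limma as a bar; the left panel is FAD minus wild type, the middle panel FAD DKO minus FAD and the right panel FAD DKO minus wild type. Filled points have an unadjusted p under 0.05, 17, 18 and 3 factors in the 3 panels, and the widest differences are those of Gnl3, at 0.50 and -0.57.

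The members whose gene holds snoRNA genes are shown apart, because these include the factors with the widest differences. RefSeq places at least 1 snoRNA gene within the bounds of 7 measured factors: Nop56, Nop58, Dkc1, Ncl, Gnl3, Wdr43 and Ppan. Their median difference was 0.27 for FAD minus wild type and -0.48 for FAD DKO minus FAD, against 0.14 and -0.14 for the other 34 factors. Among the 7, 5 were higher in FAD and 6 were lower in FAD DKO at an unadjusted p under 0.05. Among the other 34, 12 and 12 were. Over all genes the shares were 4.41% and 4.41%, and 7.54% and 8.03% at or above the median signal. Outside the set, 326 measured protein-coding genes hold a snoRNA gene, and their medians were 0.03 and -0.02. Of these 326, 7.36% were higher in FAD and 6.75% lower in FAD DKO at that threshold. These counts are descriptions of groups made after the values were known, with no test.

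Of the snoRNAs within measured factors 9 were measured themselves, and 8 of them lay below 0 in FAD DKO minus FAD, with a median of -0.39. In FAD DKO minus wild type 8 also lay below 0 (median -0.21). In FAD minus wild type 6 lay above 0 and 3 below (median 0.08). The labelling was not made for small RNAs, so a snoRNA probe set may read the host's intron or precursor as well as the mature snoRNA, which these data do not separate. Snora75, a box H/ACA snoRNA within Ncl, fell in FAD DKO. It stood at 7.16, 7.04 and 6.79 in FAD DKO, 8.97, 8.54 and 8.41 in FAD, and 8.27, 8.42 and 8.31 in wild type. All FAD DKO arrays lay more than 1 log2 unit below the 6 others, while FAD and wild type overlapped. In limma FAD DKO minus FAD was -1.64, a ratio of 0.321 (SE 0.149, adjusted p = 0.0121), and FAD DKO minus wild type was -1.33, a ratio of 0.397 (adjusted p = 0.0227). FAD minus wild type was 0.31 (limma adjusted p = 0.638). The host's own FAD DKO minus FAD difference was -0.48.

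The calls of Snora75 rest on few arrays. In limma its FAD DKO minus FAD difference stayed between -1.76 and -1.48 when 1 array was left out, and the call was lost without wild type replicate 3 (adjusted p = 0.0614), FAD replicate 2 (0.0889), FAD DKO replicate 2 (0.111) and FAD DKO replicate 3 (0.0802), and with only these groups in the fit (0.215). The FAD DKO minus wild type difference stayed between -1.42 and -1.23 in such fits, and its limma call was lost in 6 of 9, each of which left out a FAD DKO or a wild type array (adjusted p up to 0.119), and with every probe set tested (0.0618). Snord82, a box C/D snoRNA also within Ncl, stood at 8.57, 7.58 and 8.17 in FAD DKO, 9.03, 8.58 and 8.55 in FAD, and 8.57, 8.63 and 8.60 in wild type, and its groups overlapped (FAD DKO minus FAD -0.61, limma adjusted p = 0.535). Snord110 within Nop56 gave -0.39 (limma adjusted p = 0.407). Snord19 within Gnl3 gave -1.18 (limma adjusted p = 0.247) and Snord70 within Nop58 gave -0.81 (limma adjusted p = 0.383), both at levels below the median signal, where a difference is less certain. Snord11, also within Nop58, gave 0.12. FAD DKO minus wild type was -0.48 for Snord110, -0.91 for Snord19, -0.21 for Snord70 and 0.05 for Snord11. Their hosts Nop56, Gnl3 and Nop58 gave -0.06, -0.07 and -0.09 there. FAD minus wild type was -0.08, 0.27, 0.60 and -0.06 for these snoRNAs, and 0.26, 0.50 and 0.44 for the hosts.

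**Figure D5:**
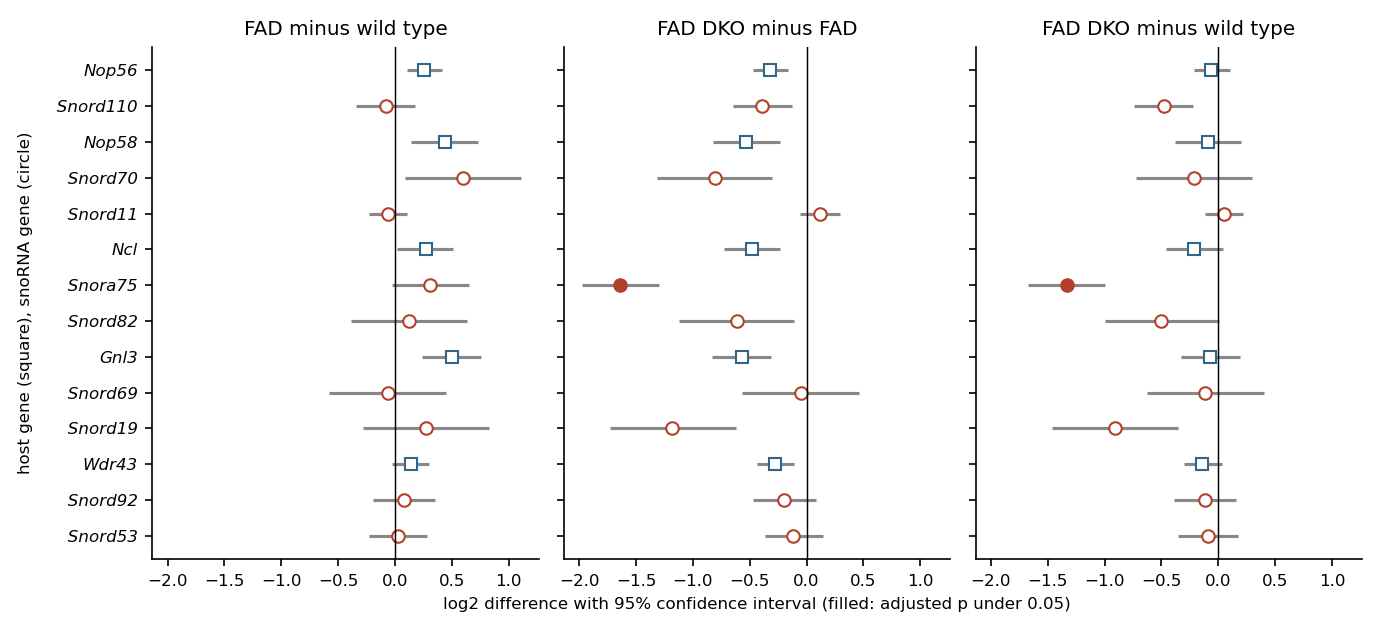
Log2 difference (horizontal axis) with its 95% interval for 5 host factors (blue squares) and, below each, the snoRNAs measured within it (red circles), by comparison. Filled symbols passed an adjusted p under 0.05 in limma, which only Snora75 did, at -1.64 in FAD DKO minus FAD and -1.33 in FAD DKO minus wild type.

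The probe sets and neighbours of the factors bear on these values. Nop56, Npm1, Ddx21, Ppan and Rrs1 had further probe sets. Those of Npm1, Ddx21 and Rrs1 had the sign of the brightest in FAD minus wild type and in FAD DKO minus FAD. The dimmer sets of Nop56 gave -0.59 and -0.01 in FAD DKO minus FAD, against -0.32 for the brightest. RefSeq places 10 of the 41 factors so that they overlap a protein-coding gene, and without known probe positions the array signal of a factor and its partner cannot be told apart. The medians of these 10 were 0.23 for FAD minus wild type and -0.21 for FAD DKO minus FAD, against 0.14 and -0.18 for the other 31. The partner of Gnl3, Glt8d1, gave 0.17 and -0.17, and that of Nop56, Idh3b, gave -0.03 in both.

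Other genes of the pathway mostly lay on the same side of 0. Of 122 measured genes of a wider ribosome biogenesis list, 0 passed the adjusted threshold of limma in any comparison. For FAD minus wild type 101 of them lay above 0 (median 0.12), with 28 higher and 1 lower at an unadjusted p under 0.05. These were 23% and 0.82% of the list, where 4.41% and 4.02% of all genes passed. In FAD DKO minus FAD 106 lay below 0 (median -0.12), with 36 lower (29.5%) and 0 higher. Over all genes the shares there were 4.41% and 3.69%. Against wild type FAD DKO had 54 above 0 and 68 below (median -0.01), with 3 higher and 5 lower. Those shares, 2.46% and 4.1%, were near the 3.95% and 4.19% of all genes. Utp15 and Utp4, partners of Wdr43 and Wdr75, gave 0.35 and 0.34 for FAD minus wild type. Taf1a, a subunit of the selectivity factor that brings RNA polymerase I to its promoter, gave 0.34, and -0.46 for FAD DKO minus FAD. Utp18, a small-subunit processing factor, gave -0.55 there.

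Genes of growth control and of cell division were set beside the factors. Of 13 measured genes of the Myc network, 0 had an unadjusted p under 0.05 in FAD minus wild type. In FAD DKO minus FAD 1 (7.69%) was higher at that threshold, where 3.69% of all genes were. It was the Myc antagonist Mnt (0.21, limma adjusted p = 0.59). At an unadjusted p under 0.05, 4.41% of all genes had higher levels in FAD over wild type. Of 24 measured proliferation genes, 4 (16.7%) did. They were Mcm3 (0.25), Mcm4 (0.35) and Mcm7 (0.40) of the replicative helicase, and Top2a (0.32), the DNA topoisomerase of dividing cells. Top2a lay below the median signal on every array (4.72 to 5.28), where a difference is less certain. It gave -0.03 for FAD DKO minus FAD and 0.29 for FAD DKO minus wild type. In FAD DKO minus FAD 6 of the 24 (25%) were lower at that threshold, where 4.41% of all genes were. Among the 6 were Pcna, the sliding clamp of DNA polymerase (-0.59), and Mcm3 (-0.44), Mcm4 (-0.47) and Mcm6 (-0.85). The medians of this list were 0.09 and -0.03, and 0 of its genes passed the adjusted threshold of limma.

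Immediate early genes, which respond to stimulation and to cell isolation, were also read. Of 29 measured, 13 (44.8%) were lower in FAD DKO than in FAD at an unadjusted p under 0.05 (median -0.23). Against wild type 12 (41.4%) were lower in FAD DKO (median -0.21). Over all genes 4.41% and 4.19% were lower. The stress-induced transcription factor Atf3 fell in FAD DKO, with a difference of -0.79 from FAD (limma adjusted p = 0.0314) and of -0.69 from wild type (limma adjusted p = 0.0261). The first call was lost in 8 and the second in 6 of the 9 fits that left out 1 array, with adjusted p up to 0.216 and 0.133, while the differences of Atf3 stayed between -0.84 and -0.75 and between -0.75 and -0.63. The first was also lost with quantile normalization (adjusted p = 0.0501), and both with only the groups compared (0.192 and 0.0973) and with every probe set tested (0.0827 and 0.0675). At an unadjusted p under 0.05, 4.41% of all genes were higher and 4.02% lower in FAD minus wild type. The list was near these shares, with 1 higher gene (3.45%) and 2 lower ones (6.9%). The higher one was Egr2, a transcription factor induced by stimulation, at 6.99, 7.35 and 7.25 in FAD DKO, 7.84, 7.95 and 7.64 in FAD, and 6.95, 6.96 and 7.01 in wild type. All its FAD arrays lay above all others, with FAD minus wild type at 0.83, a ratio of 1.78 (SE 0.108, limma adjusted p = 0.0524), and FAD DKO minus FAD at -0.61 (limma adjusted p = 0.212). The first difference of Egr2 passed in limma with the low-signal filter (adjusted p = 0.0142), a trended variance (0.0147), array weights (0.0353) and FAD DKO replicate 1 left out (0.0424). The mean of the list on each array was -0.15, -0.13 and -0.19 in FAD DKO, 0.19, -0.07 and 0.14 in FAD, and 0.04, 0.09 and 0.07 in wild type. The second FAD array, which was lowest of its group here, was also lowest of its group for the 41 factors, at 0.08. The same held for the wider ribosome biogenesis list (0.04) and the proliferation genes (0.01). It did not hold for the Myc network (-0.02, with -0.05 on the first FAD array). On the wild type arrays the 41 factors stood at -0.04, -0.02 and -0.07. The part of cell isolation in the factors' differences was not tested.

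Markers of other cells were read on the same arrays. The mean level of 17 measured monocyte and neutrophil markers was 6.08, 7.39 and 6.92 in FAD DKO, 6.98, 7.01 and 6.92 in FAD, and 6.42, 6.90 and 6.92 in wild type, with Retnlg, Mpo and Vcan below the median signal. Of the 17, 15 lay above 0 in FAD minus wild type (median 0.24) and 13 below 0 in FAD DKO minus FAD (median -0.15). The FAD DKO arrays at both ends of this range, at 6.08 and 7.39, had factor means of -0.08 and -0.10. The part of these cells in the factors' differences was not tested. Of 13 measured lymphocyte markers 11 lay below the median signal, with list means from 4.57 to 4.69 in FAD DKO, 4.47 to 4.55 in FAD and 4.51 to 4.65 in wild type. All FAD DKO list means lay above those of FAD. In FAD DKO minus FAD 11 of the 13 lay above 0 (median 0.09), with 3 at an unadjusted p under 0.05. Over all genes 3.69% were higher and 4.41% lower there. In FAD minus wild type 6 lay above 0 and 7 below, with 4 at such a p, where the shares were 4.41% and 4.02%. Perivascular macrophage markers averaged 5.48 to 5.69 in FAD DKO, 5.53 to 5.67 in FAD and 5.58 to 5.84 in wild type.

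Astrocyte markers, 10 measured and 7 of them below the median signal, Gfap, Aldh1l1 and Slc1a2 included, had list means of 5.22, 5.36 and 5.27 in FAD DKO, 5.33, 5.32 and 5.20 in FAD, and 5.37, 5.40 and 5.39 in wild type. The wild type arrays were the highest, and FAD DKO and FAD overlapped. In FAD minus wild type 8 of the 10 lay below 0 (median -0.15) and 5 had an unadjusted p under 0.05. In FAD DKO minus FAD 3 lay below 0 (median 0.01) and 2 had such a p. Over all genes 4.41% were higher and 4.02% lower at that threshold in FAD minus wild type. The shares in FAD DKO minus FAD were 3.69% and 4.41%. Endothelial and mural markers, 7 of 12 below the median signal, averaged 4.88 to 5.04 in FAD DKO, 4.89 to 4.92 in FAD and 4.86 to 4.95 in wild type. Of these 12, 9 lay above 0 in FAD DKO minus FAD (median 0.07), with 1 at an unadjusted p under 0.05. In FAD minus wild type 5 lay above 0 and 7 below (median -0.09), with 3 at such a p. Neuron markers (9 of 11 below the median signal) and oligodendrocyte markers (6 of 10) overlapped among all groups in their list means. The part of these cells in the factors' differences was not tested either.

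The promoters of the factors were searched for CACGTG, the E-box letters that Myc and related proteins bind, which read the same on both strands. RefSeq promoters, from 250 bases before to 50 bases after the start of the gene, were held for 36 of the 44 genes. CACGTG was present in 6 of these 36 (16.7%), namely Imp4, Nop2, Utp20, Pes1, Tsr1 and Wdr43, and in 2187 of 27025 genes of the same table (8.09%). Other letters of the form CANNTG were found in 21 of the 36 (58.3%) and in 72.6% of all genes. The sites of Pes1 and Wdr43 are printed because, of the 6 genes, these are the ones whose values on every array are given above. They lie on the plus strand of GRCm38.p6, Pes1 at chr11:3963965-3963994, 3 bases after the start, and Wdr43 at chr17:71616220-71616249, 18 bases after it, and capitals mark the E-box.
Pes1: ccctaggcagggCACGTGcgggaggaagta
Wdr43: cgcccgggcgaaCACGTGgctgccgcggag
For FAD DKO minus FAD, the measured genes that hold these letters gave 0.02 (Imp4), -0.07 (Nop2), -0.23 (Utp20), -0.20 (Pes1) and -0.28 (Wdr43). Measured factors with a promoter in the table but without these letters ran from -0.57 (Gnl3) to 0.01 (Nop10). The part of this motif in the differences was not tested. A match describes letters and does not show binding.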

How the data were processed

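Total RNA of sorted microglia was amplified, biotin-labelled and hybridised to 1-colour arrays, per the labels' protocols. The authors deposited probe set values on the log2 scale, and the submitters' processing notes name RMA; version, summary level and annotation are unstated (not given in the sources used here). Of 41345 probe sets, 23521 carried 1 gene symbol in the platform annotation, 1814 several, and 16010 were not listed. RefSeq names (GRCm38.p6) matched 23328 and updated 0 of them. The brightest probe set stood for each of the 1082 genes with several, which left 22180 genes.

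Linear models were fitted over all 9 arrays at once (limma 3.58.1, R 4.3.3; eBayes with neither trend nor robust option, 6 residual degrees of freedom and 8.98 after moderation), with Benjamini-Hochberg adjustment over all genes and a threshold of 0.05. The script was tested on simulated data. The median SE was 0.104 over all genes and 0.0825 over the factors, on the log2 scale. Groups were called not overlapping on values rounded to 2 decimals. The number of arrays limits the precision.

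The factors, gene lists and markers were chosen with earlier results of these data known. Myc and, in each comparison, the 8 factors with the smallest p were given in full; each other list could name those that passed and up to 4 genes of smallest p. Factors below these ranks are given as differences. Alternatives were a filter at the median signal, quantile normalization, a trended and robust variance, array weights, a fit of the compared groups alone, each gene's probe set mean, every probe set, a block for the replicate number, and fits without each array in turn. No 2 arrays were copies (smallest SD of a difference 0.335).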

Additional observations from a re-analysis of the deposited data

How the results depend on the processing

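The 41 factors were measured in all 17 alternatives, and in each of them the median of the factors kept its sign in all 3 comparisons. Of the factors, only Ppan passed an adjusted p under 0.05 in any alternative, as given in the report. Fits that left out 1 array called 8 to 12 genes in FAD minus wild type (9 with all arrays), 0 to 5 in FAD DKO minus FAD (5) and 2 to 28 in FAD DKO minus wild type (31). In that order of comparisons, the calls were 33, 11 and 117 with the low-signal filter, 43, 12 and 124 with a trended and robust variance, and 5, 0 and 13 with only the groups compared. Array weights called 22 genes in FAD minus wild type and 82 in FAD DKO minus wild type, quantile normalization 3 in FAD DKO minus FAD, and every probe set 14 in FAD DKO minus wild type. The split of calls in FAD DKO minus wild type was 21 higher and 10 lower, against 53 and 64 with the filter, 60 and 64 with the trended variance and 45 and 37 with array weights; with every probe set FAD DKO minus FAD had 4 higher and 3 lower. Factors with higher levels in FAD over wild type at an unadjusted p under 0.05 (17) numbered 11 with quantile normalization and 8 to 16 with 1 array left out. For FAD DKO minus wild type, the 1 higher factor became 2 with the trended variance and 0 to 1 with 1 array left out, and the 2 lower factors became 4 with the filter, 5 with the trended variance, 4 with array weights and 1 to 3 with 1 array left out. The median of FAD DKO minus FAD was -0.15 with quantile normalization, and that of FAD DKO minus wild type lay between -0.05 and -0.01 with 1 array left out. Myc in FAD minus wild type was -0.06 with array weights and -0.09 to 0.10 with 1 array left out. The cause of these shifts was not tested. Only the low-signal filter, the fits of the compared groups alone and the fits without 1 array used fewer genes or arrays.

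The labels number the arrays 1 to 3 in each group. Over all genes, deviations of same-numbered arrays from their group means correlated from -0.11 to 0.122 (9 pairs). For arrays of different number the range was -0.189 to 0.129 (18 pairs). These ranges overlapped, but an effect that same-numbered arrays share on some genes only could be missed. Pairing was therefore not excluded. With the replicate number as a block, 2 genes were called in FAD DKO minus FAD and 11 in FAD DKO minus wild type, 11 factors had higher levels in FAD over wild type at an unadjusted p under 0.05, and Atf3 was no longer called (adjusted p = 0.147 and 0.0951). The block called Rrp7a, of the wider list, in FAD DKO minus wild type (-0.69, adjusted p = 0.0484). Signal over background was not analysed, so differences of dim probe sets such as Snord19 are limited by it.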

Other observations

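In Ubtf the 3 wild type arrays held the same value to within 0.001 on the log2 scale, at 7.37. Such equality within a group was found in 0 of the other factors, and in 1.98% of genes in FAD DKO, 2.05% in FAD and 2.02% in wild type. Ppan narrowly missed this limit, at 7.18 on each wild type array with an SD of 0.0007.

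Rrp7a, a small-subunit processing gene of the wider list, had a pattern of its own among the genes with the smallest p. It stood at 6.50, 6.14 and 6.13 in FAD DKO, 6.68, 6.24 and 6.17 in FAD, and 7.29, 6.80 and 6.75 in wild type. Both FAD DKO (-0.69, limma adjusted p = 0.304) and FAD (-0.58, limma adjusted p = 0.493) lay below wild type without overlap, and in each group the first array was the highest.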
